A study of Mus musculus with 9 samples.

Results

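The cathepsins described here are the 10 genes Ctsa, Ctsb, Ctsc, Ctsd, Ctse, Ctsh, Ctsl, Ctss, Ctsw and Ctsz, chosen by name from the 46072 genes measured in mouse splenic monocytes, with 1 entry for each in both tables. The 9 libraries came from female C57BL/6 mice, 3 in each group, and the monocytes were taken from the spleen by negative selection and were not stimulated further. Mice of the Con group received water by gavage over 6 days and then a rest of 8 days (6 to 8 days per the labels). Van mice received 2 mg of vancomycin daily, an antibiotic that is poorly absorbed from the gut, over the same 6 days, with the same rest. VanLip mice received vancomycin in the same way and were then injected with L654, a serine-glycine lipid made by Bacteroidota that is recognised through TLR2, on days 7, 9 and 11. Vancomycin is thus shared by Van and VanLip, and the lipid was given only after vancomycin, so its effect in water-gavaged mice was not measured in these libraries. The labels name no injection for Con or Van mice. If none was given, the injections and handling cannot be told apart from the lipid.

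Cathepsins are proteases that work mainly in the acid interior of endosomes and lysosomes, and they are made as inactive precursors that cleavage matures there. In monocytes and other antigen-presenting cells they degrade ingested and internal proteins, trim antigens, and remove the invariant chain from MHC class II molecules. Most members are papain-type cysteine proteases (Ctsb, Ctsc, Ctsh, Ctsl, Ctss, Ctsw and Ctsz), Ctsd and Ctse are aspartic proteases, and Ctsa is a serine carboxypeptidase. The transcript levels below do not measure the amount of mature enzyme or its activity.

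Total expected counts were 43070361 to 61383806 per library in Con and Van and 170503470 to 184720704 in VanLip. The commonest low count corresponded to reads of 100 bases in every Con and Van library and of 150 bases in every VanLip library. The study, however, describes a single read length. Expected counts grow with read length and are not fragments. At those lengths the totals equal 16151385 to 23018927 fragments in Con and Van and 42625868 to 46180176 in VanLip. Read length and depth therefore coincide with the VanLip group and cannot be told apart from it in both comparisons that use VanLip. All 10 monocyte markers examined, among them Csf1r, Ly6c2 and Lyz2, had at least 1 FPKM in every library (FPKM counts fragments relative to both transcript length and sequencing depth). Of the other cells the preparation could hold, T and NK cell markers summed to between 4.96 and 8.82 FPKM, and neutrophil markers, with Ly6g listed at 0 in every library and the other 8 above 0 in at least 1 library, to between 2.46 and 13.7. Markers of conventional and plasmacytoid dendritic cells summed to 107 to 156 and 75.5 to 116 FPKM. All 10 macrophage markers, C1qa and Vcam1 among them, were at 1 FPKM or more in every library and summed to 1599 to 2489, and their part in the cathepsin levels was not tested. Hemoglobin and other erythroid markers summed to 101 to 205 FPKM in Con, 346 to 777 in Van and 282 to 1171 in VanLip, with no overlap between Con and either other group.

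Ctss and Ctsb made up most of the cathepsin message in every library. Ctss, which cleaves the invariant chain in antigen-presenting cells, had 1096, 1048 and 1107 FPKM in the Con libraries, 1103, 1083 and 1113 in those of Van and 1041, 1070 and 1114 in those of VanLip. Its 3 groups overlapped. Its mean over the 9 libraries ranked 32 among all genes. Ctsb, which acts both inside a protein chain and at its carboxyl end, averaged 552 ± 44.8 FPKM in Con, 589 ± 45.9 after vancomycin and 575 ± 39.9 after the lipid (SD, n = 3 mice per group) and ranked 93. These 2 genes together held between 57.2% and 61.1% of the summed cathepsin FPKM of a library.

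The next 5 cathepsins lay close to each other in FPKM. Ctsd, the main aspartic protease of lysosomes, had a mean of 272 ± 47.2 (SD, n = 3) in Con, of 301 ± 47.3 after vancomycin and of 258 ± 29.6 after the lipid. Ctsz, a carboxypeptidase, ranged from 215 to 260 FPKM over the 9 libraries. Ctsa, which also holds beta-galactosidase and neuraminidase in a stable complex, ranged from 195 to 230 FPKM. Ctsc, the dipeptidyl peptidase that activates the serine proteases of cytotoxic and neutrophil granules, ranged from 159 to 225 FPKM, and the aminopeptidase Ctsh from 161 to 197. All 7 of these genes stood among the 342 genes with the highest mean FPKM.

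The remaining 3 cathepsins were far lower. Ctsl, an endopeptidase known for invariant chain processing in the thymic epithelium, ranged from 19.2 to 27.8 FPKM, and Ctse, an aspartic protease of endosomes, from 5.73 to 8.23. Ctsw, a protease of NK and cytotoxic T cells, did not exceed 0.147 FPKM in any library. Its expected counts were 0, 10.3 and 9.23 in Con, 4.69, 0 and 0 in Van and 20.1, 29.7 and 28.9 in VanLip, before any correction for the larger depth of VanLip. In normalized counts, which correct for it, the highest Ctsw value was 16.7, in Con replicate 3, so nothing is read from the fitted folds of this gene and it is left out of the counts of 9 cathepsins below.

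**Figure D1:**
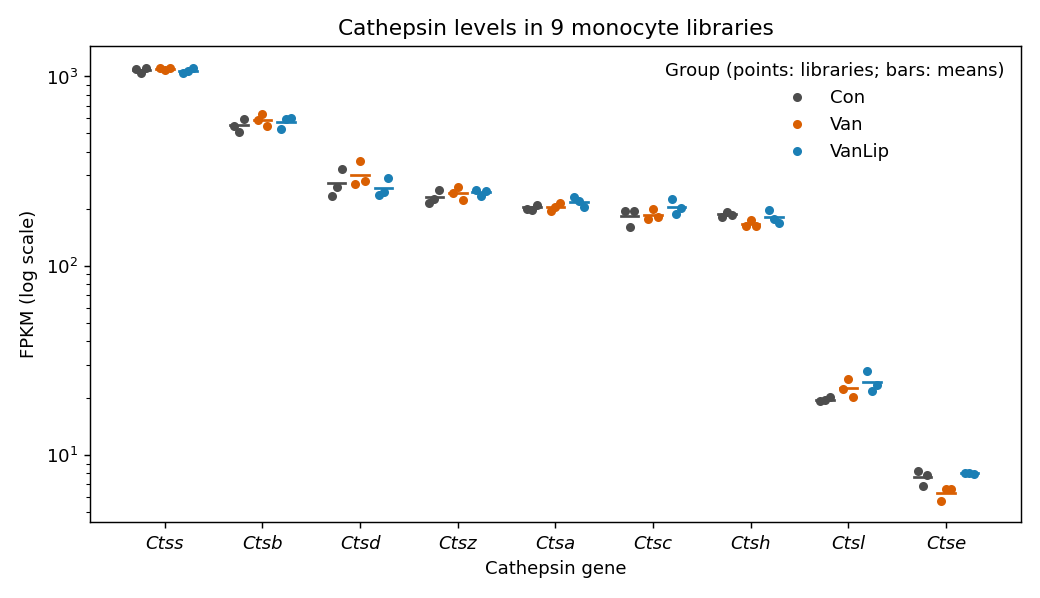
FPKM on a log scale for 9 cathepsins, with 1 point per library and a bar at the mean of each group of 3. Ctss lies at about the same level in the 3 groups, and Ctsl and Ctse lie far below the other 7 genes.

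The order of mean levels was the same at both ends in every group, with Ctss, Ctsb, Ctsd, Ctsz and Ctsa first and Ctsl, Ctse and Ctsw last. Ctsh and Ctsc exchanged places between Con and the other 2 groups, but their libraries overlapped in Con and in VanLip. Ctsd and Ctsz overlapped in Con and in VanLip, and Ctsa and Ctsc overlapped in Van and in VanLip. The other neighbours down to Ctse did not overlap within a group.

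This order holds per transcript length only. In normalized counts, which are not divided by length, Ctsb averaged 257814 and Ctss 140018 over the 9 libraries, the reverse of their order in FPKM. All 10 genes are annotated as protein coding on GRCm38. Ctss (ENSMUSG00000038642) lies on chromosome 3 from 95526786 to 95556403 and overlaps the pseudogene Hmgb1-ps5 on the same strand, and Ctsd and Ctsl also overlap another annotated gene on their own strand, which can exchange reads with them. Ctse (ENSMUSG00000004552), on chromosome 1 from 131638306 to 131675505, and Ctsh overlap no other annotated gene.

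The summed cathepsin level was 2739 ± 145 FPKM (SD, n = 3) in Con, with 2817 ± 112 for Van and 2787 ± 63.7 for VanLip, which is 0.666% to 0.744% of all FPKM in a library. The group means lay within 1 SD of each other. The share of Ctss in this sum ran from 36.8% to 40.6% over the libraries, that of Ctsb from 19.3% to 21.6%, and that of Ctsl from 0.694% to 1.01%.

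**Figure D2:**
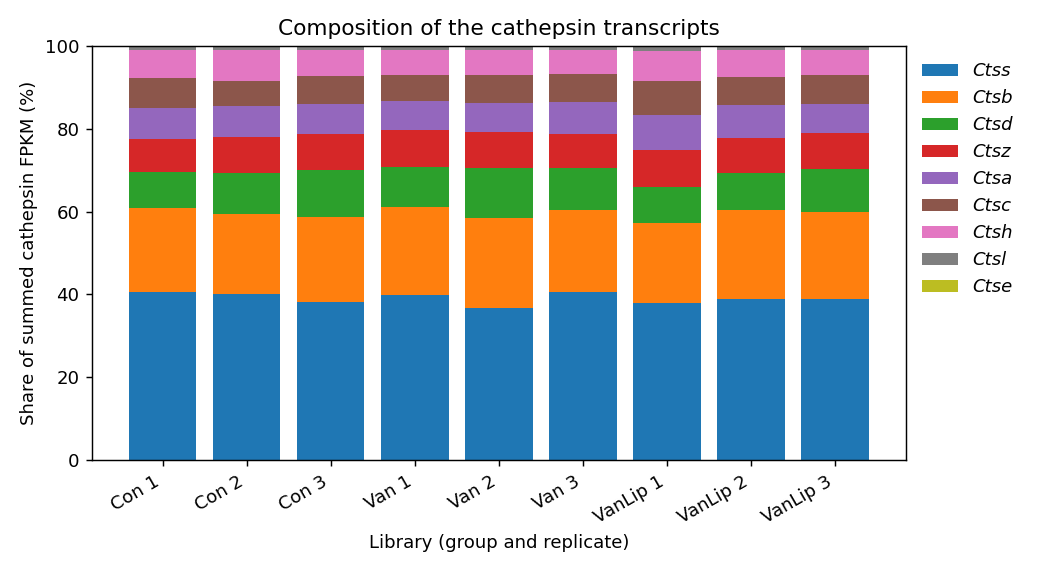
Share of each cathepsin in the summed cathepsin FPKM, in percent, stacked for each of the 9 libraries. Ctss and Ctsb together take 57.2% to 61.1% of every bar, in all 3 groups.

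The members differed in their spread over the libraries. The coefficient of variation of normalized counts over all 9 libraries was 2.71% for Ctss, the lowest of the 9 cathepsins, and 13.5% for Ctsd, the highest. The median over the 1759 genes averaging 10000 normalized counts or more was 7.84%. Ctsz, Ctsb, Ctsa and Ctsh lay below that median, at 5.66%, 6.17%, 6.25% and 6.57%, and Ctsc above it, at 9.57%. Within groups Ctsd still varied by 13.7% and Ctse by 6.67%, against 12.0% for Ctse over all libraries. Ctsd was lowest in Con replicate 1 and VanLip replicate 1 (233 and 237 FPKM) and highest in Van replicate 2 (356). The macrophage marker sum was also lowest in those 2 libraries (1600 and 1599 FPKM) and highest in Van replicate 2 (2489). The part of cell mix in this spread was not tested.

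Van was compared with Con to ask how the cathepsins stood after vancomycin and rest. No cathepsin passed the test, the DESeq2 Wald test with Benjamini-Hochberg adjustment at 0.05, by which 4.34% of all genes with an adjusted p were called. Only Ctse was under an unadjusted p of 0.05, as were 11.1% of all genes tested. The edgeR quasi-likelihood test and limma on FPKM also called 0. The median log2 fold change of the 9 cathepsins was 0.01, with 6 above 0 and 3 below.

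Ctse showed the lowest p of that comparison. Its normalized counts were 1689, 1405 and 1561 in Con and 1167, 1299 and 1344 in Van. Every Van library lay below every Con library, but the highest Van library was close to the lowest Con library. The log2 fold change was -0.29 (standard error 0.10, DESeq2 adjusted p 0.0845). Without Con replicate 2 the log2 fold change was -0.36 and the gene was called.

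B cell markers were also lower in Van than in Con, at 255 to 282 against 342 to 399 FPKM summed over 8 genes. Ighm alone accounted for 241 to 381 FPKM of these sums. The other 7 genes summed to 13.7 to 15.3 FPKM in Van and 16.3 to 17.8 in Con, and the defining B cell gene Pax5 did not exceed 0.114 in any library. Among all 70 marker genes, 4 were lower in every Van library than in every Con and VanLip library, as Ctse was, and Vcam1 was higher. Those 4 were the monocyte genes Ccr2 (70.4 to 98.2 FPKM in Van, 156 to 256 in the other libraries) and Itgam (174 to 183, against 192 to 240), and the dendritic cell genes Clec9a and Ccr9. T and NK cell markers were lower in Van too, at 4.96 to 6.56 FPKM summed against 6.67 to 8.82 in Con. The part of B cell, T and NK cell, erythroid, monocyte subset or dendritic cell RNA in the Ctse values was not tested. In bulk samples such as these, fewer cells of a type and less RNA per cell cannot be told apart.

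Ctsh and Ctsl were the other cathepsins whose Van and Con libraries did not overlap. Ctsh had normalized counts of 30004, 30694 and 30727 in Con and 27592, 28982 and 27960 in Van, all lower in Van. Its log2 fold change was -0.11 (standard error 0.08, DESeq2 adjusted p 0.578), and it ran from -0.208 to -0.098 over 21 alternative analyses, none with a call. Ctsl had normalized counts of 3652, 3705 and 3741 in Con and 4244, 4616 and 3814 in Van. All Van libraries were higher, and they were far more spread than those of Con. The log2 fold change of Ctsl was 0.19 (standard error 0.11, DESeq2 adjusted p 0.457). Such separation in 3 of 9 cathepsins stands beside 24.1% of all genes averaging 50 normalized counts or more.

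For the abundant members the DESeq2 intervals bound how large a change could be. The 95% interval of the Van against Con log2 fold change lay between -0.5 and 0.5, a change of 1.41-fold, for all 9 cathepsins. For Ctss it ran from -0.09 to 0.11 around 0.01, and for Ctsa from -0.14 to 0.11 around -0.02. Ctsd had the widest interval among the 7 abundant genes, from -0.13 to 0.40. A p that misses the threshold does not show that the groups were equal, but these intervals hold no larger change. They come from the DESeq2 fit alone, which made false calls above its threshold on simulated data. Over 21 alternative analyses the Ctss estimate ranged from -0.009 to 0.127, so it could leave its interval.

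**Figure D3:**
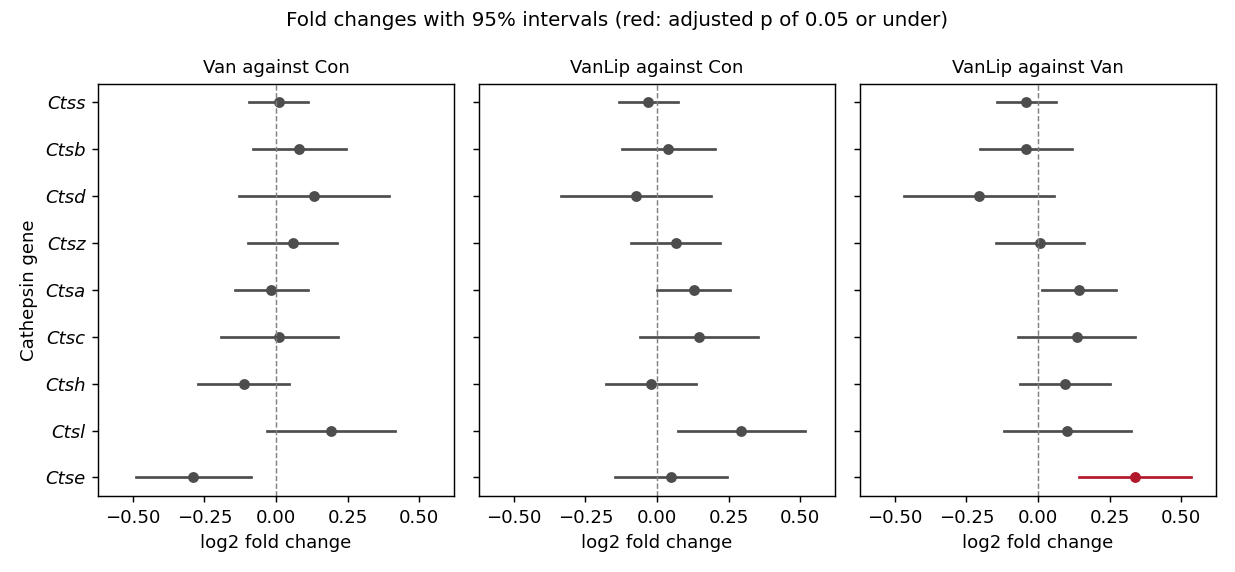
Log2 fold change of 9 cathepsins in the 3 comparisons (points) with its 95% interval (lines), from the DESeq2 fit of all 9 libraries; red marks an adjusted p of 0.05 or under. Only Ctse in VanLip against Van is red, and no interval reaches beyond 0.53 above 0 or 0.49 below it.

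VanLip was compared with Con to ask what differed from water-gavaged mice once the lipid had followed vancomycin. Again no cathepsin was called by DESeq2, where 6.23% of all genes with an adjusted p were, and edgeR and limma called 0 as well. Only Ctsl was under an unadjusted p of 0.05, as were 13% of all genes tested. The median log2 fold change of the 9 cathepsins was 0.05.

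Ctsl had normalized counts of 5242, 4012 and 4356 in VanLip, all above the Con libraries listed above. The 3 Con libraries lay close together and VanLip replicate 1 stood well above the other 2 VanLip libraries. The log2 fold change was 0.29 (standard error 0.11, DESeq2 adjusted p 0.101). Without VanLip replicate 1 it was 0.18, and without VanLip replicate 2 it was 0.38 and the gene was called.

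Ctsa was the other cathepsin with no overlap, at 57457, 56644 and 55864 normalized counts in Con and 66687, 60857 and 58167 in VanLip. VanLip replicate 1 was again the highest and replicate 3 was near the Con libraries. The log2 fold change was 0.13 (standard error 0.07, DESeq2 adjusted p 0.280), and without VanLip replicate 1 it was 0.07. Monocyte markers in VanLip replicate 1 summed to 12633 FPKM, against 10994 and 10830 in replicates 2 and 3. Its erythroid markers summed to 282 FPKM against 1171 and 1097, and its macrophage markers to 1599 against 1917 and 2034. The part of these cell types in the Ctsl and Ctsa values was not tested. These 2 of 9 cathepsins stand beside 24.5% of all genes with non-overlapping VanLip and Con libraries. Ctse had 1626, 1594 and 1592 normalized counts in VanLip, inside the range of Con, and the 95% interval of its log2 fold change ran from -0.15 to 0.24.

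VanLip was compared with Van to ask what differed once lipid injections had followed vancomycin, and here 1 cathepsin, Ctse, was called. DESeq2 called 9.2% of all genes with an adjusted p in this comparison, 4.26% higher and 4.93% lower in VanLip. The 9 cathepsins had a median log2 value of 0.09, with 6 above 0 and 3 below, beside 0.006 over 13503 genes averaging 50 normalized counts or more. Ctse rose from 1270 ± 91.7 normalized counts in Van to 1604 ± 19.2 in VanLip (SD, n = 3 each). All 3 VanLip libraries were above all 3 Van libraries, and the VanLip libraries lay within a narrow range. The log2 fold change was 0.34 (standard error 0.10, DESeq2 adjusted p 0.0127).

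The call on Ctse was lost in 9 of 21 alternative analyses, with log2 fold changes of 0.28 to 0.38 and adjusted p of 0.00609 to 0.119 over all 21. It was lost with edgeR, at an adjusted p of 0.0524, and when VanLip was thinned to the depth of the other libraries, at 0.073. It was also lost without Van replicate 1 (log2 fold change 0.28), Van replicate 2 (0.35), VanLip replicate 1 (0.33) or VanLip replicate 2 (0.34). The comparisons of Ctse between Van and Con and between VanLip and Van share the 3 Van libraries, so the lower value in one and the higher value in the other are not separate observations.

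**Figure D4:**
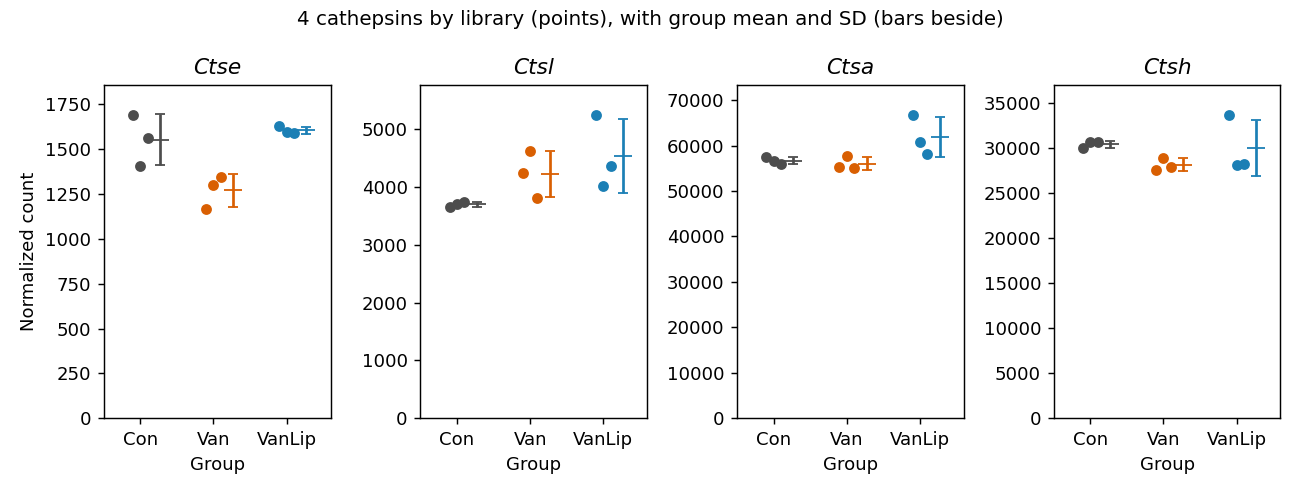
Normalized counts of Ctse, Ctsl, Ctsa and Ctsh in each library (points), with the mean and SD of each group of 3 beside them; each axis starts at 0. Ctse is lowest in Van, Ctsl is lowest in Con, and VanLip replicate 1 is the highest library for Ctsl, Ctsa and Ctsh.

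Ctsa was the only other cathepsin under an unadjusted p of 0.05 in VanLip against Van, so 2 of 9 stand beside 15.5% of all genes tested. Its Van libraries held 55294, 57745 and 55103 normalized counts, all below the VanLip libraries, though Van replicate 2 nearly reached VanLip replicate 3. The log2 fold change was 0.14 (standard error 0.07, DESeq2 adjusted p 0.172), and without VanLip replicate 1 it was 0.09. Ctsa and Ctse were also the 2 of 9 cathepsins with no overlap, beside 28.6% of all genes. Ctsd had the lowest estimate, -0.21 with a 95% interval from -0.47 to 0.06, and it was -0.09 without Van replicate 2 and -0.30 without VanLip replicate 3. Ctss stayed within -0.14 to 0.06, and 8 of 9 intervals lay inside 0.5 on either side of 0, Ctse being the exception.

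The cathepsins with the lowest adjusted p were set against the patterns of all other genes averaging 50 normalized counts or more. Over the 9 libraries, Ctse was most like Gm16576 (Pearson r 0.964 of log2 normalized counts), the protease gene Plau (0.955) and Nubp1 (0.945). Ctsl was most like Alkbh7 (0.941), the formyl peptide receptor gene Fpr1 (0.931) and Cd55 (0.930), and Ctsa was most like Pgam1 (0.954), Dennd1c (0.949) and Wdr92 (0.947). These are the highest of 13494 values for each cathepsin over libraries that share groups, and Ctsw, next in line, was too low for such a value to be read.

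Other lysosomal genes were described from lists of 125 genes, 112 of them detected. In Van against Con 3 were called, all lower in Van, where 2.27% of all genes with an adjusted p were called higher and 2.06% lower. Gnptab, which makes the mannose phosphate tag that sends hydrolases, cathepsins among them, to lysosomes, fell by 0.32 on the log2 scale (DESeq2 adjusted p 0.0112), a call lost in 8 of 21 alternatives, edgeR, limma and the omission of any Van library among them. The lipase gene Lipa fell by 0.37 (DESeq2 adjusted p 0.0430), a call lost in 11 of 21 alternatives. With limma on FPKM 0 of the listed genes were called, and with edgeR 1. Without Van replicate 2 there was 1 call, and without VanLip replicate 1 there were 10 calls, 3 of them higher.

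In VanLip against Con 1 listed gene was higher and 5 were lower, where 2.77% of all genes were called higher and 3.46% lower. All 5 that fell belonged to the list of 6 genes for the invariant chain and the DM and DO molecules, which work beside the cathepsins in loading MHC class II. H2-DMb1, H2-DMb2 and H2-Ob fell by 0.51, 0.63 and 0.55 on the log2 scale (DESeq2 adjusted p 0.00227, 0.0111 and 0.00889), calls lost in 4, 5 and 8 of 21 alternatives. Cd74, which encodes the invariant chain, fell by 0.84 (DESeq2 adjusted p 0.0337) and H2-DMa by 0.37 (0.0159), both named after their values were seen, and their calls were lost in 12 and 6 of 21 alternatives. In Van against Con all 6 estimates of this list were also below 0 (median -0.35 on the log2 scale). There 5 were under an unadjusted p of 0.05, as were 11.1% of all genes tested, and 0 were called, as were 4.34%. Both comparisons share the Con libraries, so the lower values in each are not separate observations. H2-DMb1, H2-DMb2 and H2-Ob were each highest in Con replicate 1. In VanLip against Van 0 were under that p, against 15.5% of all genes, and 0 were called, against 9.2%. Ctss, which cleaves the invariant chain, had a log2 fold change of -0.03 in VanLip against Con. Nagpa, which uncovers the mannose phosphate tag, rose by 0.23 (DESeq2 adjusted p 0.0395), a call lost in 17 of 21 alternatives. With edgeR and with limma 0 of these 6 were called, and without Con replicate 1 only H2-DMb1 was. B cell markers summed to 260 to 325 FPKM in VanLip against 342 to 399 in Con, but without Ighm to 12.7 to 17.4 against 16.3 to 17.8, which overlap. Conventional dendritic cell markers summed to 107 to 132 FPKM in VanLip and 129 to 156 in Con, and VanLip replicate 1 was the lowest library for that sum and for H2-DMb1 and H2-DMb2. The part of either cell type in these values was not tested.

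In VanLip against Van 2 listed genes were higher and 4 lower, of 110 with an adjusted p, where 4.26% of all genes were called higher and 4.93% lower. The hydrolase gene Sgsh had 4493, 4231 and 4160 normalized counts in Van and 6049, 6061 and 5281 in VanLip. All VanLip libraries were higher, and Sgsh rose by 0.43 on the log2 scale (DESeq2 adjusted p 2.80e-05). Flcn, a regulator of lysosomal nutrient signalling, fell by 0.44 (DESeq2 adjusted p 0.000111). Flcn and Sgsh kept their calls in all 21 alternatives. Lgmn, the asparaginyl protease that helps to mature several cathepsins, had 28725, 30196 and 26797 normalized counts in Van and 20839, 24009 and 24900 in VanLip. Every VanLip library was lower, a log2 fold change of -0.30 (DESeq2 adjusted p 0.00638), and the call was lost in 5 of 21 alternatives, among them edgeR, limma and the fit without Van replicate 2. The proton pump gene Atp6v0a2 fell by 0.17 (DESeq2 adjusted p 0.0202), a call lost in 15 of 21 alternatives. Without Van replicate 2 there were 3 calls, Flcn and Sgsh among them.

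Of 16 inhibitors of cathepsins and granule proteases, 12 were detected and 0 were called in any comparison by DESeq2. Of all genes with an adjusted p, 4.34%, 6.23% and 9.2% were called in Van against Con, VanLip against Con and VanLip against Van. In the same order 3, 3 and 1 inhibitors were under an unadjusted p of 0.05, as were 11.1%, 13% and 15.5% of all genes tested. The edgeR test and limma also called 0 inhibitors. Some alternatives did call inhibitors. Cst7, an inhibitor of cysteine cathepsins, had log2 fold changes of -1.08 in Van against Con and -0.98 in VanLip against Con, DESeq2 adjusted p 0.109 and 0.126, with every Van and VanLip library below every Con library. These comparisons share the Con libraries and are not separate observations. Cst7 was called for Van against Con when only those 2 groups were fitted or when VanLip replicate 1 was left out, and for VanLip against Con without VanLip replicate 3. Serpinb6b was called for Van against Con and VanLip against Van without Van replicate 1, and Serpinb1a for VanLip against Van without Van replicate 3. Of 13 further cathepsin genes, Ctsf, Ctsg, Ctsk and Ctso were detected and 0 were called. Of these, 1 was under an unadjusted p of 0.05 in Van against Con and 0 in the other comparisons, beside the shares of all genes given above. Ctsg, a serine protease of neutrophil granules, stayed between 26.2 and 65.9 normalized counts, and Ctso, a papain-type member, between 3168 and 4296. Over all listed genes the median log2 fold change was 0.01, 0.00 and 0.00 in the 3 comparisons.

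**Figure D5:**
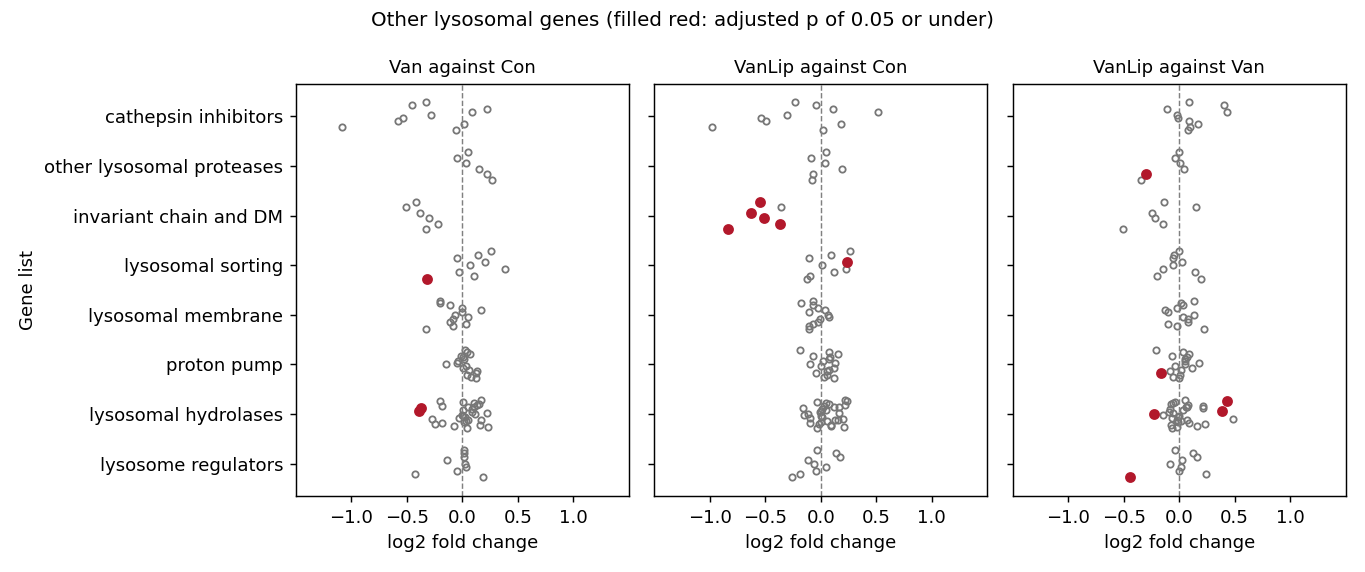
Log2 fold change of 101 other lysosomal genes with a summed group mean of at least 100 normalized counts, by list and comparison; filled red points have an adjusted p of 0.05 or under. The 5 red points of the invariant chain and DM list lie below 0 in VanLip against Con, and most other points lie within 0.5 of 0.

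The palindrome CACGTG, the core of the site bound by TFEB and related regulators of lysosomal genes, was searched for in RefSeq promoters on GRCm38.p6, from 250 bases before to 50 bases after the start site. Of the 6 cathepsins with a promoter in that table, Ctsa, Ctsd and Ctsl held it, against 8.09% of the 27025 genes there. A match describes the letters of the window only, and it reads the same on both strands.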

How the data were processed

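Splenic monocyte RNA from 9 mice was sequenced from polyA-selected, stranded libraries, and titles of the samples gave group and replicate. The authors aligned reads to GRCm38 with HISAT2 2.2.1, handled alignments with SAMtools 1.9 and estimated FPKM with StringTie 2.1.3, and they deposited the FPKM of each gene. Expected counts from tximport, not normalized, were deposited beside them. The annotation release was not given in the sources used here; GENCODE M21 held 99.0% of the detected identifiers. Low counts gave the read length implied by the tximport default of 75 bases.

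After rounding, expected counts were analysed (R 4.3.3) by the two-sided DESeq2 1.42.0 Wald test, all 9 libraries in 1 fit, default independent filtering (level 0.1) and Benjamini-Hochberg adjustment over all genes, called at 0.05. An earlier run had tuned that filtering to 0.05; it was replaced by the default named in the design after its values had been seen, and it is kept as an alternative. The other 20 alternatives were edgeR 4.0.16, TMM sizes, a filter of 10 counts in 3 libraries, 2-group fits, a replicate block, no independent filtering, fragments, thinned VanLip, limma 3.58.1 on log2(FPKM + 1), log2(FPKM + 0.1) or only genes averaging 1 FPKM or more, and the omission of each library in turn. Tested on simulated data, DESeq2 made false calls at a rate above its threshold, whereas edgeR stayed below it. Replicates of a group differed by more than counting error in every pair. P-values measure the spread between 3 mice per group.

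The members and lists were chosen with earlier results of these data known. Named were all cathepsins, at most 3 called genes per list, direction and comparison, markers, and the 3 genes most like each of at most 4 cathepsins, in log2 normalized counts with 1 added. The coefficients of variation and the non-overlap counts are descriptions without a test. Some listed genes and markers are counted but not reported here by name.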

Additional observations from a re-analysis of the deposited data

How the results depend on the processing

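For VanLip against Van, 0 cathepsins were called with edgeR, the replicate block, thinned VanLip and limma on log2(FPKM + 1) or log2(FPKM + 0.1), against 1 in the reported analysis; leaving out 1 library gave 0 to 1 in each of the 3 comparisons. Under the replicate block Ctse had a log2 fold change of 0.34 and a DESeq2 adjusted p of 0.0614. Same-numbered libraries correlated by -0.06 to 0.12 in their deviations from group means. The labels do not say whether they shared a cage, day or preparation, and these correlations cannot decide it. Of the other lysosomal genes in Van against Con, 1 was called with edgeR, 9 with only the 2 groups compared, 0 in each limma analysis, and 1 (without Van replicate 2) to 10 (without VanLip replicate 1) on leaving out a library, against 3; without VanLip replicate 2 there were 5. In VanLip against Con, edgeR and limma gave 0 and leaving out a library 1 (without Con replicate 1) to 9, against 6. In VanLip against Van, edgeR gave 3, limma 3, 2 and 3, and leaving out a library 3 (without Van replicate 2) to 7, against 6. Filtering tuned to 0.05, added after the data were seen, gave 7, Dpp7 being the additional gene, and the same cathepsin counts. The causes of these shifts were not tested.

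Some estimates near 0 changed sign, none of them called. The 3 limma analyses gave -0.034 for Ctsc in Van against Con, 0.052 for Ctss in VanLip against Con and -0.001 for Ctsz in VanLip against Van, and TMM sizes gave 0.004 for Ctsh in VanLip against Con. Ctsw, with almost no counts and no fold that can be read, gave -0.092 in VanLip against Con with thinned VanLip. On leaving out a library, VanLip against Con ranged from -0.011 to 0.090 for Ctsb, from -0.169 to 0.055 for Ctsd, from -0.018 to 0.116 for Ctse, from -0.111 to 0.025 for Ctsh and from -0.366 to 0.790 for Ctsw. Van against Con ranged from -0.077 to 0.067 for Ctsc and from -0.009 to 0.034 for Ctss, though Ctss reached 0.127 over all 21 alternatives. VanLip against Van ranged from -0.090 to 0.006 for Ctsb, from -0.014 to 0.184 for Ctsl and from -0.041 to 0.049 for Ctsz. For the cathepsins, 588 estimates kept their direction and side of the threshold, 9 lost a call, 2 gained one and 28 changed sign, Ctsw included. Depth limits Ctsw in particular.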
